A study of Arabidopsis thaliana with 8 samples.

Results

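Senescence-linked NAC transcription factors are described here across young inflorescences of Arabidopsis thaliana. The 5 genes were ANAC055 (AT3G15500), ANAC019 (AT1G52890), ANAC072 (AT4G27410, also known as RD26), NAP (AT1G69490) and ORE1 (AT5G39610, also known as ANAC092). They were taken by gene identifier, and all 5 were among the 19853 genes of the deposited table. RNA was sequenced from inflorescences with flowers no older than stage 8 in 4 genotypes: the ag-10 fhy3-68 double mutant, the fhy3-68 mutant, the ag-10 mutant and the Ler wild type, with 2 libraries each, described as biological replicates. FHY3 is a transcription factor of phytochrome A signalling, and ag-10 is an allele of AGAMOUS, the regulator of stamen and carpel identity. Neither the lesions nor the ages of the plants are given in the labels, and Ler is the Landsberg erecta strain. The 5 genes were selected on a link to senescence with measured values of the same table in view, among them the log2 fold change of ANAC055 in fhy3-68 against Ler. Levels in comparisons with the fhy3-68 or Ler libraries are therefore given as a description, without a test. Tests are given for ag-10 fhy3-68 against ag-10. Its fold changes use neither the fhy3-68 nor the Ler libraries, although these enter the shared estimate of the spread. The members were chosen with earlier results of these data known, so the tests of members are not independent of that choice.

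NAC proteins are a plant family of transcription factors with a conserved DNA-binding domain at the amino terminus and a variable regulatory region behind it. ANAC019, ANAC055 and ANAC072 form a close subgroup that is induced by drought, salt, abscisic acid (ABA) and jasmonate, and that binds the promoter of ERD1. NAP and ORE1 promote leaf senescence: NAP acts through ABA, and ORE1 acts downstream of ethylene and is restrained by the microRNA miR164. NAP was first described in flowers, as a gene activated by the petal and stamen regulators AP3 and PI.

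Expression is given in normalised reads, which the authors scaled to about 1000000 for each library. The depth in the listed genes ranged over the libraries from 12322061 to 16816619 reads, and 1 read was worth 0.0598 to 0.0793 in this unit. FHY3 mRNA lay between 70.48 and 93 in the 4 libraries with fhy3-68 and between 103.38 and 109.81 in the 4 without it. FAR1, its closest homologue, was called higher in ag-10 fhy3-68 against ag-10 (0.54, SE 0.08, limma adjusted p = 0.0353), a call lost without any 1 of the Ler, ag-10 or ag-10 fhy3-68 libraries. The 8 young flower markers were present in every library, with a summed level of 1007 to 1094 in the libraries with fhy3-68 and 1132 to 1176 in those without, and the largest log2 fold changes in ag-10 fhy3-68 against ag-10 were those of UFO (-1.04) and AP2 (-0.4), not called. Of the 5 mature pollen markers, the summed level was 94.87 and 19.07 in ag-10 fhy3-68, 69.64 and 23.27 in fhy3-68, 4.3 and 12.8 in ag-10, and 8.74 and 26.74 in Ler, with 0 to 2 of the 5 genes at 0 in a library. The first replicate of each genotype with fhy3-68 stood apart in these markers, led by VGD1 (2.66 in ag-10 fhy3-68 against ag-10, SE 1.01) and TIP5;1 (1.11, SE 0.51), not called, and their part in the levels of the NAC genes was not tested. Markers of rapid stress responses also differed between libraries and are given beside the genes they moved with.

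All 5 NAC genes were higher in the inflorescences that carried fhy3-68. In each of them the 4 libraries with fhy3-68 lay above the 4 without it, an order found in 14.3% of all 19853 genes. That order includes the fhy3-68 and Ler libraries, and the genes were selected with values of the table in view. It is therefore a description for all 5. In ag-10 fhy3-68 against ag-10, 4 of the 5 were called higher: ANAC055, ANAC072, NAP and ORE1 (limma, Benjamini-Hochberg adjusted p under 0.05), where 0.992% of all genes were called higher, 0.509% lower and 1.5% in either direction. ANAC019 missed the threshold. Listed genes reach 1 in 2 or more libraries, and ANAC055 reached 1 only in libraries with fhy3-68. The order and the call of ANAC055 are therefore not independent of that filter. Both ag-10 fhy3-68 libraries lay above both ag-10 libraries in all 5, an order that 27.8% of all genes shared. In bulk tissue, more cells that express a gene and more RNA per cell cannot be told apart.

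**Figure D1:**
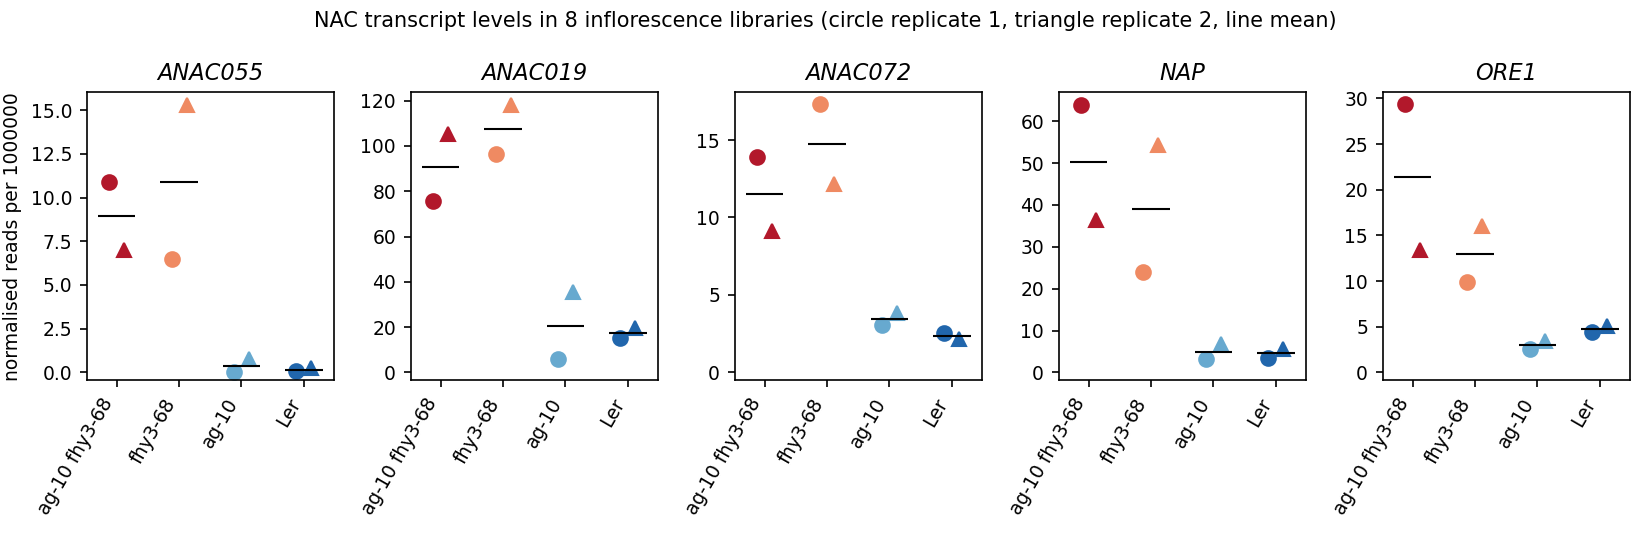
Normalised reads per 1000000 (vertical axis, one scale per panel) of the 5 NAC genes in the 8 libraries, by genotype; circles are replicate 1, triangles replicate 2 and lines the means of 2 libraries. The 4 libraries with fhy3-68 lie above the 4 without it in every panel, with ANAC019 between 75.85 and 118.21 against 5.78 to 35.46.

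The stress-responsive subgroup is described first. ANAC019 (chr1:19696923-19698482, minus strand, 3 exons; all coordinates are from TAIR10.1) had the highest level per length of the 5 in every genotype. It stood at 75.85 and 105.26 in ag-10 fhy3-68, at 96.48 and 118.21 in fhy3-68, at 5.78 and 35.46 in ag-10, and at 15.26 and 19.68 in Ler. The ag-10 libraries lay far apart, on both sides of the Ler libraries. Its log2 fold change in ag-10 fhy3-68 against ag-10 was 2.58 (SE 0.68, limma adjusted p = 0.102), higher in 2 of 2 libraries but not called. Without ag-10 replicate 2 it was 3.84 and was called (limma adjusted p = 0.0241), and without ag-10 replicate 1 it was 1.32 (limma adjusted p = 0.197), the remaining ag-10 library being assumed to vary like the other genotypes. Against Ler its log2 fold change was 2.59 (SE 0.68) in fhy3-68 and 2.33 (SE 0.68) in ag-10 fhy3-68, as a description.

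ANAC055 (chr3:5234457-5236196, plus strand, 3 exons) was nearly silent without fhy3-68. Its highest value there was 0.77, under the 1 that listed genes reach in 2 or more libraries. ANAC055 was thus listed through libraries with fhy3-68 alone, which favours its call. It stood at 10.87 and 6.99 in ag-10 fhy3-68, at 6.5 and 15.27 in fhy3-68, at 0 and 0.77 in ag-10, and at 0.07 and 0.24 in Ler. These values rest on 277 reads in ag-10 fhy3-68, 305 in fhy3-68, 10 in ag-10 and 4 in Ler. The ratio of ag-10 fhy3-68 to ag-10 was 24-fold, with an exact binomial interval at 95% of 12.85 to 50.6 that covers counting error only. All 10 ag-10 reads came from replicate 2, and against that library alone the ratio was 11.6 and the log2 fold change 2.86, not called (limma adjusted p = 0.189). On the log2(value + 0.5) scale, on which changes of weakly expressed genes come out too small, ANAC055 rose by 3.53 (SE 0.53, limma adjusted p = 0.0364), higher in 2 of 2 libraries. The call of ANAC055 was lost with a pseudocount of 0.1 (4.9, limma adjusted p = 0.0565) and in the edgeR quasi-likelihood test (4.56, adjusted p = 0.059). As a description, fhy3-68 had 72.2 times the level of Ler, with a counting interval of 27.9 to 267, a ratio that rests on the 4 reads of Ler.

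ANAC072 (chr4:13707192-13709170, minus strand, 3 exons in its longest of 3 annotated transcripts) stood at 13.93 and 9.15 in ag-10 fhy3-68, at 17.34 and 12.17 in fhy3-68, at 3.03 and 3.83 in ag-10, and at 2.55 and 2.14 in Ler. The libraries with fhy3-68 did not overlap those without it. Its log2 fold change in ag-10 fhy3-68 against ag-10 was 1.59 (SE 0.26, limma adjusted p = 0.0406), the smallest of the 5 with the smallest standard error. Against Ler it was 2.41 (SE 0.26) in fhy3-68 and 2.06 (SE 0.26) in ag-10 fhy3-68, as a description. In ag-10 against Ler the log2 fold change of ANAC072 was 0.46 (SE 0.26), as a description.

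The senescence regulators follow. NAP (chr1:26122080-26123514, plus strand, 3 exons) stood at 63.95 and 36.46 in ag-10 fhy3-68, at 24.05 and 54.24 in fhy3-68, at 3.24 and 6.74 in ag-10, and at 3.33 and 5.71 in Ler. Replicates differed by 1.75-fold to 2.26-fold within the genotypes with fhy3-68, less than the gap to the libraries without it. Its level was 50.2 ± 19.4 in ag-10 fhy3-68 against 4.99 ± 2.48 in ag-10 (SD, n = 2 each), an increase by 3.23 on the log2 scale (SE 0.49, limma adjusted p = 0.0364), higher in 2 of 2 libraries. As a description, NAP was 8.73 times as high in fhy3-68 as in Ler and 11.1 times as high in ag-10 fhy3-68 as in Ler. AP3 and PI, the regulators NAP is named after, were chosen after their values were seen. AP3 stood at 196.83 and 166.53 in ag-10 fhy3-68 against 240.15 and 229.62 in ag-10 (log2 fold change -0.37, SE 0.16, limma adjusted p = 0.243). PI stood at 270.5 and 272.56 in ag-10 fhy3-68 against 281.2 and 299.24 in ag-10 (-0.1, SE 0.09, limma adjusted p = 0.592), and neither was called.

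ORE1 (chr5:15858398-15859911, minus strand, 3 exons) stood at 29.36 and 13.45 in ag-10 fhy3-68, at 9.86 and 16.06 in fhy3-68, at 2.61 and 3.45 in ag-10, and at 4.4 and 5.08 in Ler. Its mean was lowest in ag-10, with a log2 fold change against Ler of -0.58 (SE 0.37), as a description. In ag-10 fhy3-68 against ag-10 it rose by 2.54 (SE 0.37, limma adjusted p = 0.0348), higher in 2 of 2 libraries. In fhy3-68 against Ler the log2 fold change was 1.32 (SE 0.37), as a description. The difference between these 2 effects of fhy3-68 was 1.22 (SE 0.53) on the log2 scale, as a description. It was 0.67 without ag-10 fhy3-68 replicate 1 and 1.77 without replicate 2. For ANAC072 the difference ran the other way, at -0.81 (SE 0.365). For ANAC019 it was -0.01 (SE 0.96) and for NAP 0.32 (SE 0.69). For ANAC055 it was -0.48 (SE 0.75) on the log2(value + 0.5) scale, but -1.54 in edgeR and -1.6 in DESeq2. Those values of ANAC055 rest on 4 reads in Ler and 10 in ag-10. For ORE1 edgeR and DESeq2 both gave 1.37.

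ORE1 differs from the other members in its site for miR164, whose sequences are shown because miR164 is the known restraint on ORE1. The mature sequences were read from the RefSeq annotation of TAIR10.1, a Columbia genome, as DNA from 5′ to 3′, with the seed (bases 2 to 8) in capitals. MIR164a and MIR164b encode the same mature sequence, and MIR164c shares its seed. In the gene sites, capitals mark bases that differ from a perfect complement of miR164a.
MIR164a mature, chr2:19520770-19520790, plus strand: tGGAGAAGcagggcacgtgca
MIR164c mature, chr5:9852684-9852704, plus strand: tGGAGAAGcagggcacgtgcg
ORE1 site, chr5:15858797-15858817, minus strand: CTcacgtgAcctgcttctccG
CUC1 site, chr3:5111137-5111157, plus strand: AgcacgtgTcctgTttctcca
NAC100 site, chr5:24701687-24701707, minus strand: tCTacgtgccctgcttctcca
The ORE1 site lies in the coding sequence and differs from the perfect complement at 4 of 21 bases, against 3 in CUC1 and 2 in NAC100. The best match in the coding sequences of the other 4 members differed at 9 or more bases. The level of miR164 itself was not analysed here. The 5 other genes with such a site that were listed, the boundary genes CUC1 and CUC2 together with NAC1, NAC079 and NAC100, had 0 called in ag-10 fhy3-68 against ag-10 and 0 in fhy3-68 against Ler (limma), with median log2 fold changes of 0.01 and 0.36. At an unadjusted p under 0.05 there were 2 in ag-10 fhy3-68 against ag-10, of which 1 was higher. In fhy3-68 against Ler there was 1, and it was lower. Of all genes, 21.1% and 24.4% had such a p in these comparisons. EdgeR and DESeq2 called 0 of the 5 in both. The largest change among them in ag-10 fhy3-68 against ag-10 was that of NAC1, at 2.92 and 1.61 in ag-10 fhy3-68 against 0.56 and 1.23 in ag-10 (0.99, SE 0.36, limma adjusted p = 0.18).

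**Figure D2:**
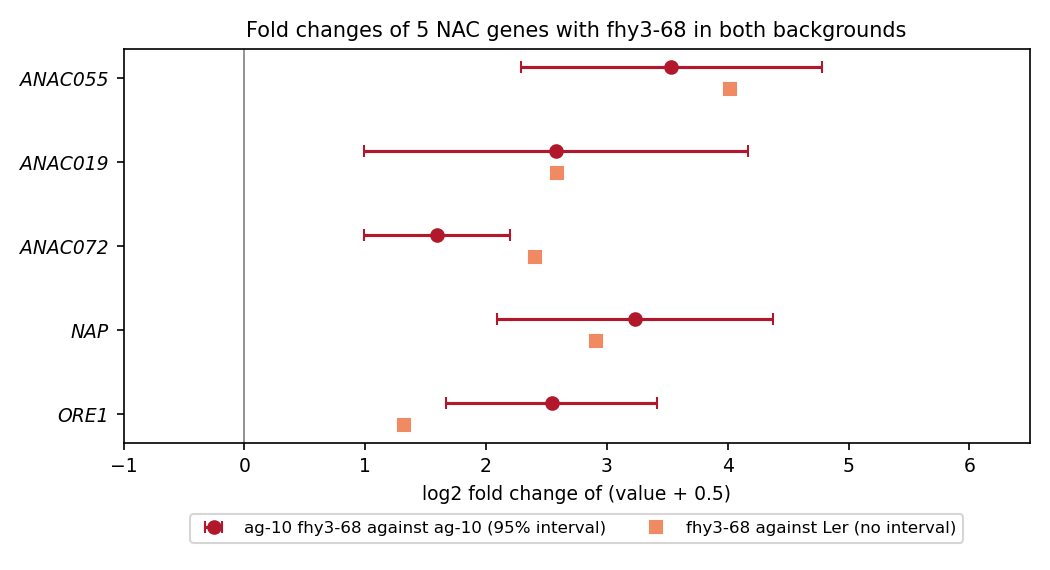
Log2 fold changes on the log2(value + 0.5) scale (horizontal axis) of the 5 NAC genes for ag-10 fhy3-68 against ag-10 (circles, with 95% intervals from the fit over 8 libraries) and fhy3-68 against Ler (squares, without intervals, since these values were in view when the genes were selected). ANAC055 has the largest change in both, 3.53 and 4.02, and ORE1 the smallest in fhy3-68 against Ler, 1.32.

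The 4 calls in ag-10 fhy3-68 against ag-10 depended on single libraries. So did the calls over all genes, whose number moved widely in the same fits. The losses below are therefore no result about these members. All 4 were lost without Ler replicate 1, Ler replicate 2, ag-10 replicate 1, or ag-10 fhy3-68 replicate 1. Without ag-10 fhy3-68 replicate 2 only ORE1 was called, and without ag-10 replicate 2 only ANAC019. Without either fhy3-68 library 4 were called. Without ag-10 fhy3-68 replicate 1, in which pollen markers were high, the log2 fold changes were 3.23 for ANAC055, 1.3 for ANAC072, 2.83 for NAP and 1.99 for ORE1. The fold changes kept their sign in each of these fits, and leaving out a library that is not in the comparison changed the shared spread alone.

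Levels were compared between genes per kilobase of the longest annotated transcript. In ag-10 fhy3-68 the order was ANAC019 at 66.5 ± 15.3, NAP at 40.1 ± 15.5, ORE1 at 16.3 ± 8.58, ANAC072 at 6.46 ± 1.89 and ANAC055 at 5.79 ± 1.78 normalised reads per kilobase (SD, n = 2). In Ler the levels were 12.8 ± 2.3 for ANAC019, 3.61 ± 1.34 for NAP, 3.61 ± 0.367 for ORE1, 1.31 ± 0.162 for ANAC072 and 0.101 ± 0.078 for ANAC055. NAP and ORE1 in Ler, and ANAC072 and ANAC055 in ag-10 fhy3-68, differed by less than the spread of their replicates. Among the 74 NAC family genes of the table, ANAC019 ranked 2 by level per kilobase in ag-10 fhy3-68 and in fhy3-68, 12 in ag-10 and 14 in Ler. ANAC055 ranked 34 in ag-10 fhy3-68 and 28 in fhy3-68, and was the lowest of the 74 in ag-10 and in Ler. Family genes that did not reach 1 in 2 or more libraries were not in the table and have no rank.

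Replicate differences were partly shared between these genes. ANAC055, NAP and ORE1 were higher in the same replicate in 4 of 4 genotypes: replicate 1 of ag-10 fhy3-68 and replicate 2 of fhy3-68, of ag-10 and of Ler. ANAC019 shared that order in 3 genotypes and was higher in replicate 2 of ag-10 fhy3-68. ANAC072 shared it in 2, being higher in replicate 1 of fhy3-68 and of Ler. Over the 8 libraries, Pearson's r between the log2 levels of 2 members lay between 0.829 (ANAC019 and ORE1) and 0.988 (ANAC055 and NAP) in the 10 pairs, given as a description since all points share the 4 genotypes.

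**Figure D3:**
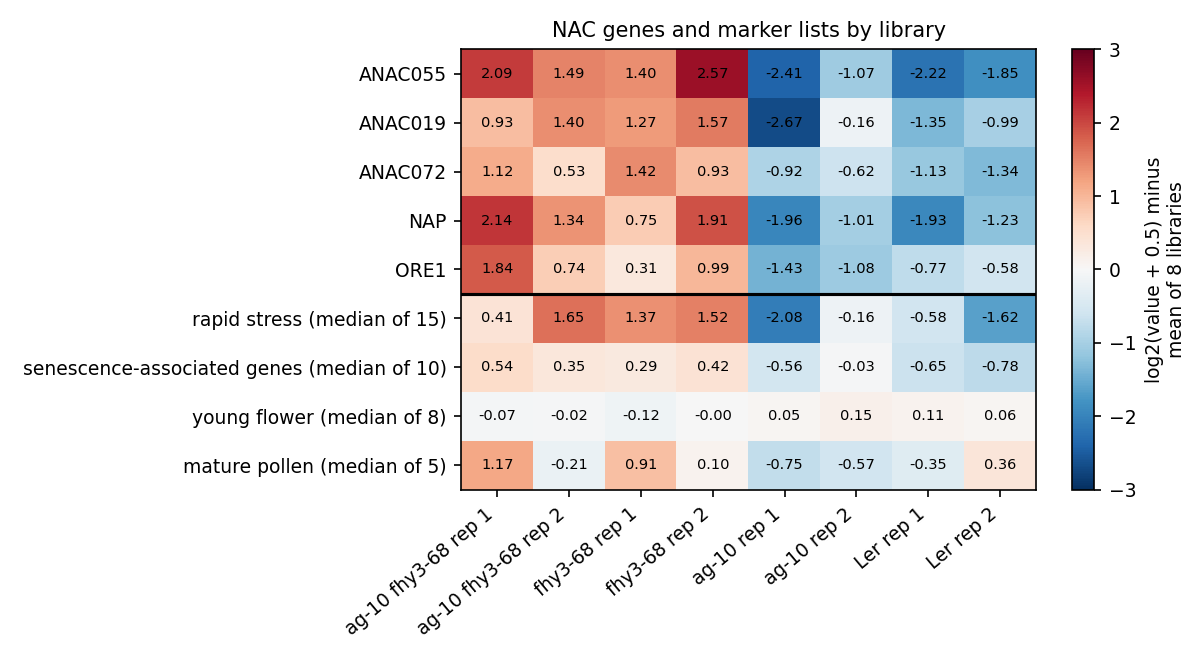
Log2(value + 0.5) minus the mean of the 8 libraries for the 5 NAC genes (top rows) and the median of the same quantity over 4 marker lists (bottom rows), by library. ANAC019 in ag-10 stands at -2.67 in replicate 1 and -0.16 in replicate 2, and the rapid stress list at -2.08 and -0.16.

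Stress markers were high in the same libraries as the NAC genes. The 15 rapid stress genes, which respond within minutes to touch, wounding or cold, had a summed level of 738 and 1528 in ag-10 fhy3-68, 1392 and 1744 in fhy3-68, 133 and 467 in ag-10, and 383 and 183 in Ler, with 0 genes at 0. The summed list and ANAC019 were higher in the same replicate in 3 of 4 genotypes, and in Ler the list was higher in replicate 1 and ANAC019 in replicate 2. In ag-10 fhy3-68 the list was higher in replicate 2, while ANAC055, ANAC072, NAP and ORE1 were higher in replicate 1. In ag-10 fhy3-68 against ag-10, 15 of 15 rapid stress genes had a positive log2 fold change, with a median of 1.92 beside -0.004 for all genes. Of the 15, 0 were called (limma), with 12 at an unadjusted p under 0.05, 0 by edgeR and 4 by DESeq2. Of all 19853 genes, 21.1% had an unadjusted p under 0.05 there, and DESeq2 called 1066. In fhy3-68 against Ler 15 of 15 were positive, with a median of 2.43 beside -0.015 for all genes. There 13 had an unadjusted p under 0.05 and DESeq2 called 9, beside 24.4% and 1483 of all genes. Limma and edgeR called 1 each. The limma call was CML38, a calmodulin-like gene (2.94, SE 0.48, limma adjusted p = 0.0352). In ag-10 fhy3-68 against ag-10 CML38 had 2.03 (SE 0.48, limma adjusted p = 0.0836). The part of these markers in the levels of the NAC genes was not tested.

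The 5 genes are paralogs, and their coding sequences were 52.8% to 76% identical in the 10 pairs, with ANAC019 and ANAC055 the closest. The longest run of bases shared exactly by transcripts of 2 members was 24, and it was 23 between ANAC019 and ANAC055. ANAC019 and ANAC055 each have a NAC gene beside them, NAC018 at 6333 bases and NAC056 at 7235 bases. NAC018 stood at 8.97 and 5.8 in ag-10 fhy3-68 against 6.28 and 5.67 in ag-10 (log2 fold change 0.26, SE 0.27, limma adjusted p = 0.628). NAC056 stood at 11.69 and 10.94 in ag-10 fhy3-68 against 15.45 and 13.17 in ag-10 (-0.32, SE 0.14, limma adjusted p = 0.238). Neither neighbour was called. The annotation shows no gene model that overlaps any of the 5.

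The promoters of the 5 genes were read as the 250 bases before the annotated start in TAIR10.1, and searched on both strands for 4 motifs: ACGTG, the core of the ABA-responsive element, CACGTG, the G-box bound by MYC2 and phytochrome-interacting factors, CACGCGC, the site bound by FHY3, and CATGTG, the site of the ANAC019 subgroup in ERD1. Each CACGTG also holds ACGTG on both strands. The 3 promoters with a match are shown from 5′ to 3′ on the gene's strand, with matches in capitals.
ANAC019, chr1:19698483-19698732, minus strand: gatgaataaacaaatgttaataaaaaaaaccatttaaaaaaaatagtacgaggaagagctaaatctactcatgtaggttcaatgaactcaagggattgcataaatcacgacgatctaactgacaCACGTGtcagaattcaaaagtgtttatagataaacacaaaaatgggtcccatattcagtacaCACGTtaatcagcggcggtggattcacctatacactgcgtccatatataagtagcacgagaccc
ANAC072, chr4:13709171-13709420, minus strand: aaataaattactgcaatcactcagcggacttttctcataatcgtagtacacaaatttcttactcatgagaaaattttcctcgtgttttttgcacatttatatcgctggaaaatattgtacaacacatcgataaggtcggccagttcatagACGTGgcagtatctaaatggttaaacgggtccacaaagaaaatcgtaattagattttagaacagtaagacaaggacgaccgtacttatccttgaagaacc
NAP, chr1:26121830-26122079, plus strand: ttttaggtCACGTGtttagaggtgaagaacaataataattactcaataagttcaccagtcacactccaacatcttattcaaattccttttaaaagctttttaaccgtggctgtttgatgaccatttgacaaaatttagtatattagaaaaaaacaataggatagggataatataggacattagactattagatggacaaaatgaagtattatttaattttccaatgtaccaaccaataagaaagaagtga
ACGTG was present in ANAC019, ANAC072 and NAP, against 22.9% of 27443 promoters of the same length. CACGTG was present 126 bases before the start of ANAC019 and 242 bases before the start of NAP, against 6.49% of promoters. ANAC019 held a further ACGTG core at 64 bases, and ANAC072 held its core at 100 bases. The letters CACGCGC (in 1.06% of promoters) and CATGTG (in 11.1%) were in none of the 5 windows, and ANAC055 and ORE1 held none of the 4 motifs. TAIR10.1 is a Columbia genome, and the sequence of the plants used, with Ler as the wild type, may differ.

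The wider NAC family was compared next. Of 100 family genes in the reference 74 were in the table, and of the 69 that are not members 2 were called higher, 0 lower and 67 not called in ag-10 fhy3-68 against ag-10, with a median log2 fold change of 0.17. The 2 called higher were 2.9% of the 69, beside 0.992% of all genes. DESeq2 called 6 and edgeR 2, beside 1066 and 207 of all 19853 genes. In a list of 16 related senescence and stress NACs, 15 of them among these family genes, 2 were called higher in ag-10 fhy3-68 against ag-10 and 3 in fhy3-68 against Ler, with medians of 0.52 in both. The 4 libraries with fhy3-68 lay above the 4 without it in 19 of these 69 genes (27.5%), beside 14.3% of all genes. The called genes were the neighbours NAC046, known to promote chlorophyll breakdown, and NAC047, known from flooding responses. NAC047 stood at 21 and 11.18 in ag-10 fhy3-68, at 6.08 and 10.16 in fhy3-68, at 1.62 and 1.07 in ag-10, and at 1.42 and 0.63 in Ler. It rose by 3.12 (SE 0.4, limma adjusted p = 0.0298) on the log2 scale in ag-10 fhy3-68 against ag-10. NAC046 stood at 2.79 and 2.21 in ag-10 fhy3-68 against 0.63 and 0.61 in ag-10 (1.41, SE 0.24, limma adjusted p = 0.0452). After NAC047, the largest positive log2 fold changes among the 69 were those of NTM1, a membrane-bound NAC factor (2, SE 0.51, limma adjusted p = 0.0934), and NAC087 (1.81, SE 0.39, limma adjusted p = 0.07), neither of them called. The largest decreases were those of NAC064 (-0.93), NAC077 (-0.47) and NAC010 (-0.44), none of them called. In fhy3-68 against Ler, 4 of the 69 (5.8%) were called higher and 0 lower by limma, beside 2.26% of all genes called higher and 0.786% lower: NAC047 (2.51, SE 0.4, limma adjusted p = 0.0347), NAC102 (1.61, SE 0.28, limma adjusted p = 0.0355), ATAF2 (1.43, SE 0.22, limma adjusted p = 0.0317) and TIP (1.28, SE 0.22, limma adjusted p = 0.0365). TIP, named after its values were seen, is known for its interaction with a viral coat protein.

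**Figure D4:**
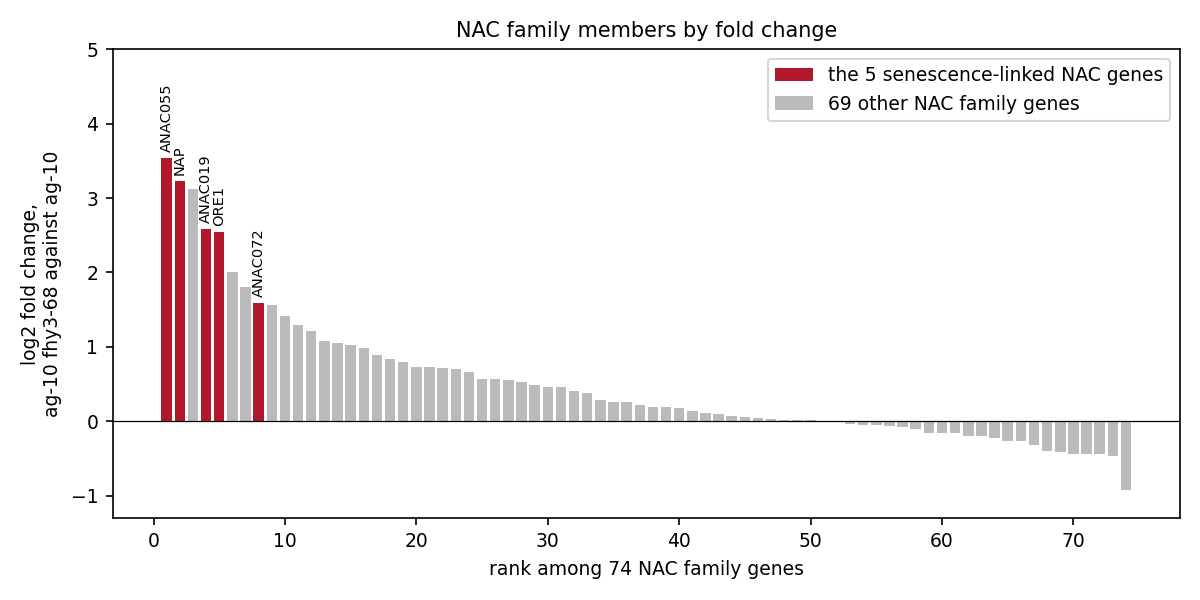
Log2 fold change in ag-10 fhy3-68 against ag-10 (vertical axis) of the 74 NAC family genes in the table, ordered by rank; red bars are the 5 senescence-linked NAC genes, which were chosen with such results known, and grey bars the 69 others. The 5 take ranks 1, 2, 4, 5 and 8, and NAC047 takes rank 3.

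Genes known to act upstream of the 5 were compared next. Of 15, 0 were called in ag-10 fhy3-68 against ag-10 and 1, PIF5, in fhy3-68 against Ler (limma), where 3.05% of all genes were called. In ag-10 fhy3-68 against ag-10 there were 4 at an unadjusted p under 0.05, 0 by edgeR and 1 by DESeq2. Of all 19853 genes, 21.1% had an unadjusted p under 0.05 there, and DESeq2 called 1066. PIF5, which activates ORE1 in the dark, stood at 31.13 and 30.72 in ag-10 fhy3-68, at 32.51 and 41.28 in fhy3-68, at 19.47 and 20.37 in ag-10, and at 21.71 and 18.65 in Ler. On the log2 scale the difference of PIF5 was 0.62 (SE 0.14, limma adjusted p = 0.0728) in ag-10 fhy3-68 against ag-10 and 0.85 (SE 0.14, limma adjusted p = 0.0346) in fhy3-68 against Ler. MYC2, the jasmonate regulator that activates the ANAC019 subgroup, stood at 223.26 and 269.93 in ag-10 fhy3-68 against 51.7 and 120.25 in ag-10 (1.63, SE 0.48, limma adjusted p = 0.124). MYC2 and ANAC019 both had their lowest level in ag-10 replicate 1, but they were higher in the same replicate in 2 of 4 genotypes only. PIF4 stood at 8.29 and 6.28 in ag-10 fhy3-68 against 3.1 and 3.91 in ag-10 (0.95, SE 0.37, limma adjusted p = 0.207). EIL1, a homologue of the ethylene regulator EIN3, stood at 23.24 and 28.81 in ag-10 fhy3-68 against 14.25 and 16.77 in ag-10 (0.72, SE 0.2, limma adjusted p = 0.113).

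The remaining upstream genes had log2 fold changes under 0.5 in size in ag-10 fhy3-68 against ag-10. For EIN2 and EIN3, which carry the ethylene signal to ORE1, they were 0.1 (SE 0.07) and 0.13 (SE 0.09). For the ABA-response factors ABF2, ABF3, ABF4, ABI5 and EEL they were -0.02, -0.14, 0.19, 0.42 and 0.08. For MYC3, MYC4, the jasmonate receptor gene COI1 and the photoreceptor gene PHYB they were 0.12, -0.19, -0.02 and -0.15. The limma adjusted p of these genes lay between 0.343 (ABF4) and 0.962 (ABF2).

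Of 15 measured genes known to act downstream of the 5, limma called ERD1 alone, in both comparisons. In ag-10 fhy3-68 against ag-10, 7 had an unadjusted p under 0.05, beside 21.1% of all genes. EdgeR called 0 of the 15, and DESeq2 called 3, ERD1 with BFN1 and NYC1, beside 1066 of all 19853 genes. ERD1 encodes a chaperone-like regulator of a plastid protease, and its promoter is bound by ANAC019, ANAC055 and ANAC072. It stood at 95.97 and 80.45 in ag-10 fhy3-68, at 84.88 and 97.25 in fhy3-68, at 53.6 and 57.98 in ag-10, and at 60.31 and 61.17 in Ler. The libraries with fhy3-68 lay above those without. ERD1 rose by 0.65 (SE 0.11, limma adjusted p = 0.0483) in ag-10 fhy3-68 against ag-10 and by 0.58 (SE 0.11, limma adjusted p = 0.0465) in fhy3-68 against Ler. Both calls of ERD1 were lost after scaling by library totals, on the 4 libraries compared, and without any 1 of the Ler, ag-10 or ag-10 fhy3-68 libraries, with limma adjusted p of at most 0.236 and 0.244. The edgeR test also lost the call in ag-10 fhy3-68 against ag-10, and leaving out fhy3-68 replicate 2 lost that in fhy3-68 against Ler. The list's median log2 fold change was 0.34 in ag-10 fhy3-68 against ag-10 and 0.08 in fhy3-68 against Ler.

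Limma on all 8 libraries called 0 of the downstream genes of ORE1, and DESeq2 called BFN1 and NYC1. BFN1, a nuclease gene of senescence, stood at 13.86 and 6.46 in ag-10 fhy3-68 against 3.46 and 4.14 in ag-10 (1.22, SE 0.34, limma adjusted p = 0.112). The ribonuclease gene RNS3 stood at 9.65 and 5.08 in ag-10 fhy3-68 against 5.43 and 4.14 in ag-10 (0.52, SE 0.35, limma adjusted p = 0.428). For both genes replicate 1 of ag-10 fhy3-68 was the higher, as for ORE1. The sucrose transporter gene SWEET15 ran the other way, at 13.46 and 12.07 in ag-10 fhy3-68 against 19.82 and 17.39 in ag-10 (-0.53, SE 0.18, limma adjusted p = 0.161). The chlorophyll breakdown genes NYE1, NYC1 and PAO had log2 fold changes of 0.71 (SE 0.23), 0.54 (SE 0.12) and 0.13 (SE 0.13). GLK1 and GLK2, chloroplast regulators whose activity ORE1 antagonises, had 0.06 (SE 0.26) and 0.38 (SE 0.16).

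Limma on all 8 libraries, edgeR and DESeq2 called 0 of the downstream genes of NAP. HAI1 and AAO3, a phosphatase gene and an ABA synthesis gene under NAP, had log2 fold changes of 0.1 (SE 0.13) and 0.51 (SE 0.17) in ag-10 fhy3-68 against ag-10, and the cytokinin oxidase gene CKX3 had 0.34 (SE 0.24). BSMT1 and ICS1, the salicylic acid methylating and synthesis genes under the ANAC019 subgroup, had -0.14 (SE 0.41) and -0.14 (SE 0.12). VSP1, a jasmonate-response gene, had 0.27 (SE 0.51). The limma adjusted p of the uncalled downstream genes lay between 0.0711 (NYC1) and 0.922 (GLK1).

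**Figure D5:**
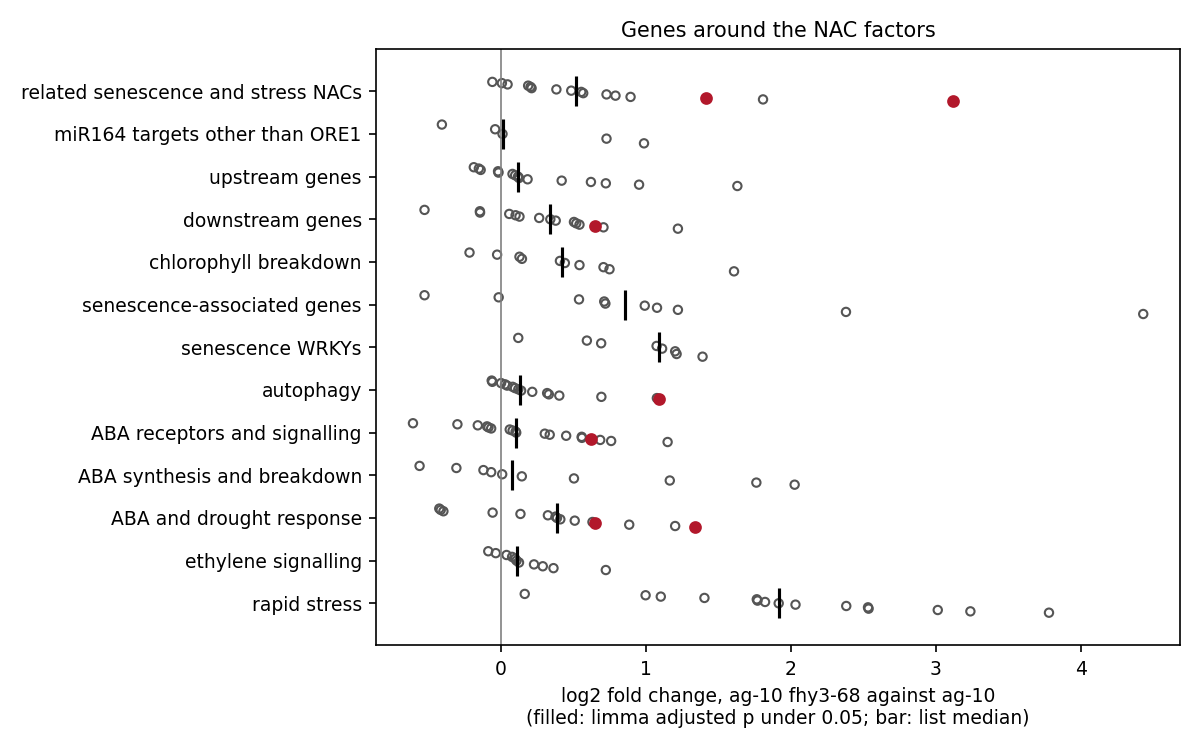
Log2 fold change in ag-10 fhy3-68 against ag-10 (horizontal axis) of genes in 13 lists around the NAC factors; each circle is a gene, filled where limma's adjusted p was under 0.05, and bars are list medians. The lists of related NACs and of rapid stress genes have medians of 0.52 and 1.92, and ERD1 is the filled point among the downstream genes.

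Senescence programmes were then compared over lists. Among 10 chlorophyll breakdown genes 0 were called in either comparison (limma and edgeR), with a median log2 fold change of 0.43 in ag-10 fhy3-68 against ag-10. At an unadjusted p under 0.05 there were 6 in ag-10 fhy3-68 against ag-10 and 5 in fhy3-68 against Ler, and DESeq2 called 3 and 1. Of all 19853 genes, 21.1% and 24.4% had an unadjusted p under 0.05 in these comparisons, and DESeq2 called 1066 and 1483. The same values stand beside the lists that follow. Among the chlorophyll breakdown genes NYE2 had the largest change, at 7.82 and 3.47 in ag-10 fhy3-68 against 1.76 and 1.07 in ag-10 (1.61, SE 0.4, limma adjusted p = 0.09). The esterase gene MES16 followed (0.75, SE 0.16, limma adjusted p = 0.073). Among 10 measured senescence-associated genes 0 were called in ag-10 fhy3-68 against ag-10 (limma and edgeR), with a median of 0.86, 7 at an unadjusted p under 0.05 and 5 called by DESeq2. In fhy3-68 against Ler 2 were called higher, the cell wall gene XTH24 (1.53, SE 0.21, limma adjusted p = 0.0278) and SAG101, known from defence and senescence (1.04, SE 0.2, limma adjusted p = 0.0423). SEN1, named after its values were seen, had the largest change but replicates far apart, at 57.16 and 129.11 in ag-10 fhy3-68 against 2.96 and 4.14 in ag-10 (4.43, SE 0.97, limma adjusted p = 0.0728). SAG12, a late marker of leaf senescence, was looked for but is not among the genes of the deposited table, so its level is not given.

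Senescence-linked WRKY factors had positive log2 fold changes in 8 of 8 genes in both comparisons, beside 49.3% of all genes in ag-10 fhy3-68 against ag-10 and 47.9% in fhy3-68 against Ler, with medians of 1.09 in ag-10 fhy3-68 against ag-10 and 1.52 in fhy3-68 against Ler. In ag-10 fhy3-68 against ag-10, 0 of 8 were called (limma and edgeR), with 5 at an unadjusted p under 0.05 and 2 called by DESeq2, and 2 were called in fhy3-68 against Ler, WRKY57 (1.69, SE 0.33, limma adjusted p = 0.0464) and WRKY22 (1.66, SE 0.27, limma adjusted p = 0.0351). Of 16 autophagy genes 1 was called higher in both comparisons, ATG8H, which encodes a ubiquitin-like protein of the autophagosome. ATG8H stood at 12.71 and 9.38 in ag-10 fhy3-68, at 10.84 and 10.81 in fhy3-68, at 4.73 and 4.98 in ag-10, and at 4.68 and 5.71 in Ler (1.09, SE 0.18, limma adjusted p = 0.0439 in ag-10 fhy3-68 against ag-10; 1, SE 0.18, limma adjusted p = 0.0401 in fhy3-68 against Ler). Limma and edgeR called none of the other 15, DESeq2 called 2 genes of the list in ag-10 fhy3-68 against ag-10 and 3 in fhy3-68 against Ler, and the list median was 0.13 in ag-10 fhy3-68 against ag-10.

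ABA genes were compared because ABA induces 3 of the members. Of 19 receptor and signalling genes 1 was called higher in ag-10 fhy3-68 against ag-10, the kinase gene OST1 (0.62, SE 0.11, limma adjusted p = 0.0499). In fhy3-68 against Ler 2 were, OST1 (0.55, SE 0.11, limma adjusted p = 0.0487) and the receptor gene PYL7 (0.96, SE 0.18, limma adjusted p = 0.0425). EdgeR called 0 and 1 of the 19 in these comparisons, so it lost the call of OST1 in ag-10 fhy3-68 against ag-10. DESeq2 called 2 and 5. Of 15 ABA and drought response genes 2 were called higher in both comparisons, ERD1 and the homeodomain gene HB7. HB7 stood at 30.58 and 23.67 in ag-10 fhy3-68 against 8.18 and 12.94 in ag-10 (1.34, SE 0.23, limma adjusted p = 0.0452). In ABA synthesis and breakdown, 0 of 10 were called in ag-10 fhy3-68 against ag-10 (limma and edgeR; 5 at an unadjusted p under 0.05 and 2 by DESeq2) and 1 in fhy3-68 against Ler, CYP707A3, which encodes an ABA hydroxylase (2.38, SE 0.42, limma adjusted p = 0.037). Of 11 ethylene signalling genes 0 were called in either comparison (limma and edgeR), with medians of 0.11 in ag-10 fhy3-68 against ag-10 and 0.07 in fhy3-68 against Ler. At an unadjusted p under 0.05 there were 1 and 2, and DESeq2 called 0 and 1. The ethylene receptor gene ERS1 had a log2 fold change of 0.36 in ag-10 fhy3-68 against ag-10 (SE 0.17, limma adjusted p = 0.281). Beside these lists, 4193 genes (21.1%) had an unadjusted p under 0.05 in ag-10 fhy3-68 against ag-10 and 4845 (24.4%) in fhy3-68 against Ler. The calls of HB7, ATG8H, OST1, NAC046 and ERD1 in ag-10 fhy3-68 against ag-10 were lost without any 1 of the Ler, ag-10 or ag-10 fhy3-68 libraries, and that of NAC047 without any of them but ag-10 fhy3-68 replicate 2. The calls of list genes in fhy3-68 against Ler were lost without either Ler library, and without fhy3-68 replicate 2 all but that of NAC102; TIP was not refitted.

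The genes whose log2 levels followed the members most closely over the 8 libraries were listed among 19318 genes with a mean value of at least 1. For ANAC055 they were AT5G19190 (r = 0.994), AT2G31130 and CRR3, a gene of the chloroplast NDH complex. For ANAC019 they were AT3G43430 (r = 0.983), AT3G44400 and the thioredoxin gene TRX5. For ANAC072 they were the protein kinase gene CIPK2 (r = 0.992), CAX7 and the glucosyltransferase gene DOGT1. For NAP they were AT1G21000 (r = 0.998), AT2G15030 and the methionine sulfoxide reductase gene MSRB1. For ORE1 they were the cytochrome P450 gene CYP709B2 (r = 0.992), the homeobox gene KNAT3 and AT2G30940. AT1G21000 averaged 23.65 in ag-10 fhy3-68, 20.02 in fhy3-68, 5.73 in ag-10 and 5.26 in Ler, and CYP709B2 averaged 19.4 in ag-10 fhy3-68, 11.2 in fhy3-68, 3.55 in ag-10 and 5.48 in Ler. Pearson's r does not measure the size of a change. MSRB1 averaged 36.66 in ag-10 fhy3-68, 35.64 in fhy3-68, 29.95 in ag-10 and 29.84 in Ler. CRR3 averaged 35.65 in ag-10 fhy3-68, 35.36 in fhy3-68, 27.46 in ag-10 and 26.98 in Ler. These correlations are a description over 8 points that share 4 genotypes.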

How the data were processed

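RNA was sequenced from young inflorescences of 4 genotypes, 2 libraries each. Genotype and replicate number come from the library titles. The members, gene lists and tests were chosen with earlier results of these data known, and p-values measure only the spread between these libraries. The authors deposited a normalised signal, worked out from the values as counts over a library's size factor, set to 1000000 reads. Divided by the worth of 1 read, 100% lay within 0.1 of a whole number, and edgeR on these recovered reads called 207 genes in ag-10 fhy3-68 against ag-10. The submitters' processing notes list HTSeq 0.6.1p1, TopHat2 2.0.14, CASAVA 1.8 and edgeR 3.10.0, with no roles. The sources used here do not give the build, annotation or strand use. Every listed gene reaches 1 in 2 or more libraries.

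Tests used limma (version 3.58.1, under R 4.3.3) on log2(value + 0.5) with its trend option. The fit had a coefficient per genotype over 8 libraries and 4 residual degrees of freedom. Tests were two-sided, with Benjamini-Hochberg adjustment over 19853 genes and a threshold of 0.05. The code was also run on simulated counts with the same dispersion for every gene, which does not vouch for the calls on these libraries. Alternatives were other pseudocounts, a filter on low values, edgeR 4.0.16 and DESeq2 1.42.0 on the recovered reads, library totals, the 4 libraries compared, the replicate block and leaving out each library. Those of list genes were added after seeing the data. Names (19811 genes matched), lengths and sequences came from RefSeq TAIR10.1. List entries whose name the reference does not give were dropped. From each list the text names called genes, at most 4, or the 2 with the largest change. All tandem neighbours, upstream and downstream genes, the 3 largest changes of the NAC family each way and the 3 genes most like each member are also named.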

Additional observations from a re-analysis of the deposited data

How the results depend on the processing

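Member fold changes in ag-10 fhy3-68 against ag-10 kept their sign in 80 of 80 refits under 16 alternatives, and so did those in fhy3-68 against Ler (80 of 80) and in ag-10 fhy3-68 against Ler (80 of 80). In comparisons with small changes the sign turned in 6 of 80 (ag-10 against Ler), 3 of 80 (ag-10 fhy3-68 against fhy3-68) and 12 of 75 refits (the interaction). The number of members called in ag-10 fhy3-68 against ag-10, which was 4, lay between 0 and 4 with 1 library left out and stayed within 1.5 times 4 under the other alternatives. Counts over all genes moved more, and the causes were not tested. DESeq2 called 1066 genes in ag-10 fhy3-68 against ag-10, 1483 in fhy3-68 against Ler and 1589 in ag-10 fhy3-68 against Ler, where limma called 298, 605 and 859. Scaling by library totals moved the share of calls that were higher to 53.4% from 66.1% in ag-10 fhy3-68 against ag-10, and to 55.7% from 74.2% in fhy3-68 against Ler, while the members called stayed at 4. The 4 libraries of each comparison alone gave 504, 345 and 2917. With the replicate number as a block the counts were 927, 1849 and 1959, and ANAC019 was called (limma adjusted p = 0.0412). Nothing in the labels says that a number marks a shared batch, and deviations of same-numbered libraries correlated at -0.11 to 0.45 over the 6 pairs of genotypes (0.28 between ag-10 fhy3-68 and ag-10), so the numbers were not taken to pair the libraries. With 1 library left out the counts lay between 1 and 1820 in ag-10 fhy3-68 against ag-10, between 1 and 3399 in fhy3-68 against Ler, and between 2 and 2802 in ag-10 fhy3-68 against Ler. Depth leaves 10 reads of ANAC055 in ag-10 and 4 in Ler.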
